A study of Mus musculus with 6 samples.

Results

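The comparison described here set splenic B cells of mice labelled Btk KO against those of mice labelled Xid, 2 arrays against 2 of the 6 in the series. The arrays were picked by their sample titles. All 12422 probe sets other than the array's own controls were considered. Each array gave 1 scaled intensity per probe set from the total RNA of whole splenic B cells of adult mice. Xid mice are the strain CBA/N, in which Btk carries the R28C substitution. The Btk KO mice came from Btk KO/SW129 animals crossed back to CBA for 9 generations. The remaining 2 arrays, of wild type CBA, entered the fit to help estimate the spread and are given as the reference level. The arrays form a first set of 3 chips and a second set of 3 with new RNA from new mice, here called run 1 and run 2, with 1 array of each group in each. Whether each RNA was that of 1 mouse or pooled is not in the labels, so p-values measure the spread between these samples. The mutation of Btk, other differences of the CBA/N strain and chromosome segments that the Btk KO line may keep from its founders cannot be told apart in this comparison.

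Btk is a cytoplasmic kinase of the Tec family. After the B cell receptor is engaged, its pleckstrin homology domain binds the membrane lipid made by PI3 kinase, and the kinase activates Plcg2, from which calcium, NFAT and NF-kB signalling follow. The Xid substitution lies in that domain and hinders its lipid binding, so that Xid mice make a Btk protein that signals poorly, whereas a knockout lacks the protein. Both lines are known for few mature follicular B cells, few B-1 cells and poor responses to some antigens. The comparison therefore asks whether the loss of Btk differs, at the level of messenger RNA, from a Btk protein that is made but poorly recruited.

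The arrays were alike in median intensity, 32.65 to 37.7 scaled units. The Btk KO array of run 1 had a different RNA integrity: its Gapdh control gave a 3' to 5' ratio of 10.4 and its beta-actin control 3.61, against 0.756 to 1.61 and 1.10 to 1.66 on the other arrays. Per the file headers, no other chip was hybridised on its day. The Btk KO minus Xid differences of run 1 were more spread than those of run 2, with an SD over probe sets of 0.59 against 0.39 on the log2 scale. The calls lost without it in the blocked fit are named. A list's median is given with an array of Xid or Btk KO left out wherever that moves it by over 1.5 times or turns its sign. Such a value sets an array of 1 run against arrays of both, while a median within run 2 does not use the Btk KO array of run 1 at all.

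Few single transcripts passed the test. Of the 7453 probe sets bright enough to test, limma called 3 at an adjusted p under 0.05 (0.0403%), 2 higher (0.0268%) and 1 lower (0.0134%) in Btk KO. None of these 3 stands for a single named gene. At an unadjusted p under 0.05 there were 269 (3.61%), fewer than the 373 that chance alone would give on average. With the run as a block, limma called 14 (0.188%), 8 higher (0.107%) and 6 lower (0.0805%), which included all 3, and 545 (7.31%) lay under an unadjusted p of 0.05. Of the 14, 11 were also called in the blocked fit without the Btk KO array of run 1. The named genes among the 14 were Ctse, Ifi202b, S100a8 and Camp, which were higher in Btk KO, and Btk, Fli1 and Slc1a5, which were lower.

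**Figure D1:**
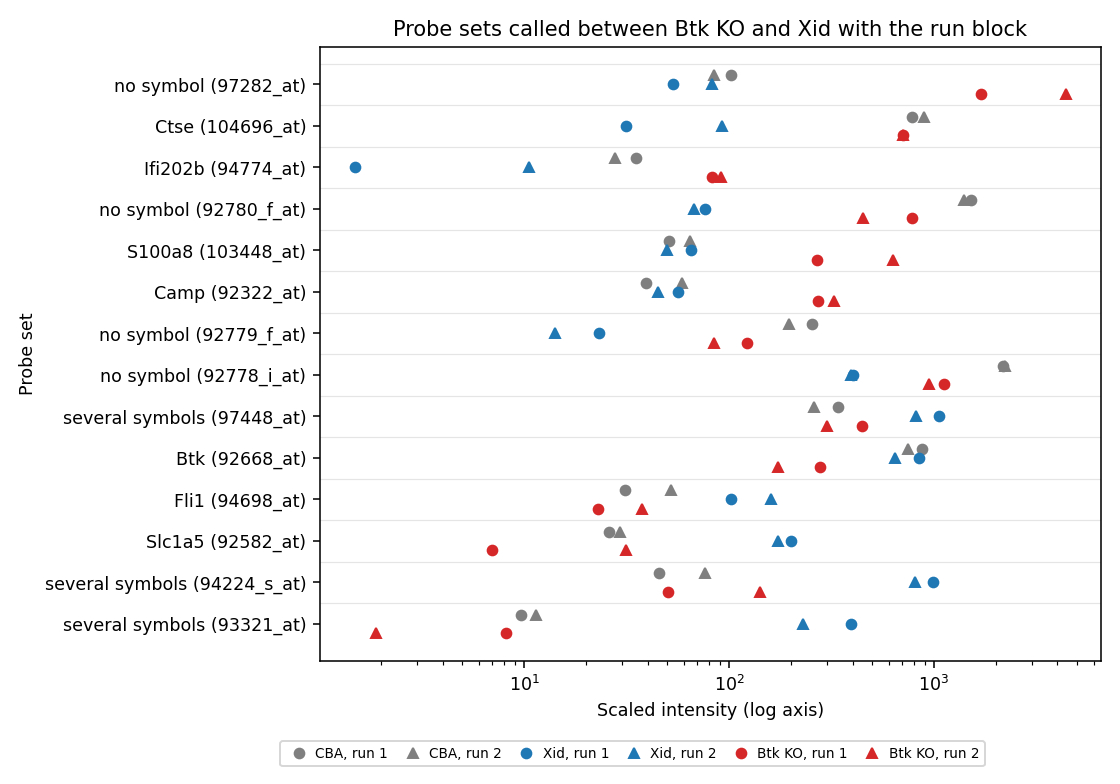
Scaled intensity on a log axis of the 14 probe sets called between Btk KO and Xid with the run block, one row per probe set, one point per array (circles run 1, triangles run 2; n = 2 arrays per group). Red Btk KO points and blue Xid points do not overlap in any row, and the grey CBA points lie nearer to Btk KO in 10 rows and nearer to Xid in 4.

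Many differences changed in size or sign between the runs. Over the 7453 probe sets, the Btk KO minus Xid differences of run 1 and run 2 had the same sign in 53.9% and a correlation of 0.21 across probe sets, which are not independent replicates. A difference of at least 1 log2 unit was seen in 606 probe sets in run 1 and in 189 in run 2. Of these, 47 passed it in both runs in the same direction, 27 higher (0.362%) and 20 lower (0.268%), which is 7.76% of the run 1 and 24.9% of the run 2 probe sets.

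**Figure D2:**
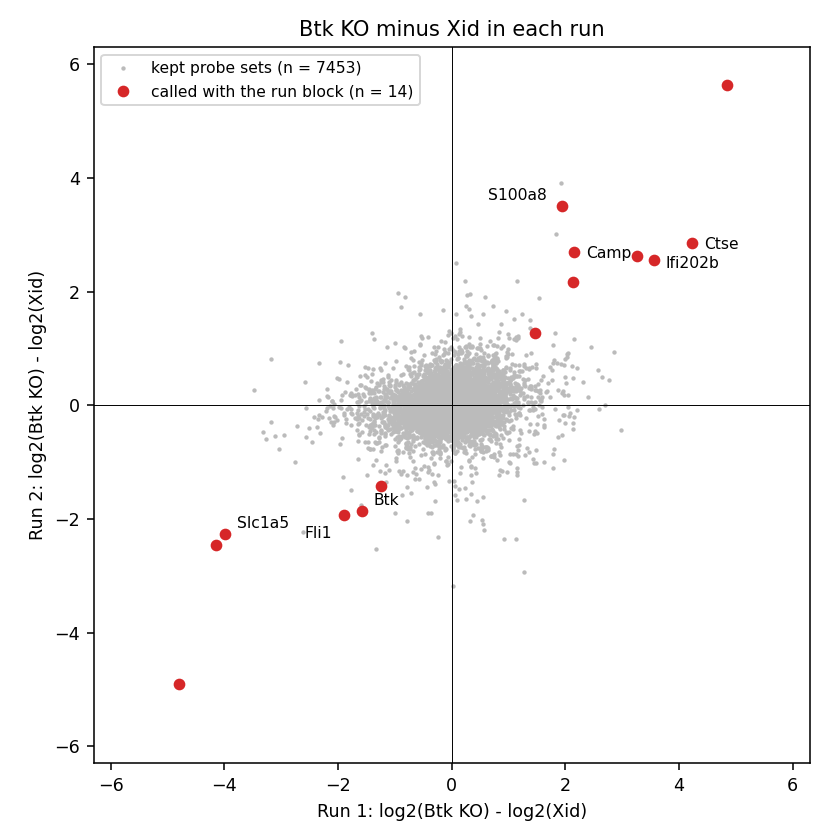
Btk KO minus Xid on the log2 scale in run 1 (horizontal) and run 2 (vertical) for each of the 7453 probe sets tested, with the 14 called with the run block in red and the named genes labelled. Most grey points form a cloud around 0 that is wider in run 1 (SD 0.59) than in run 2 (SD 0.39), and the red points lie along the diagonal.

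Btk itself was lower in the line labelled Btk KO. Its brighter probe set read 841 and 643.9 on the Xid arrays, 276.1 and 173.6 on the Btk KO arrays, and 874.1 and 749.8 on the CBA arrays. Both Btk KO arrays lay below all others, while Xid overlapped CBA. The difference between Btk KO and Xid was -1.72 ± 0.27 (log2, SE), a 3.30-fold higher mean in Xid. Differences and standard errors here and below are those of the fit without a block, also where the p of the blocked fit is given. Btk fell in the blocked limma fit (adjusted p = 0.014) and did not pass in the fit without a block (0.16). The difference was -1.59 in run 1 and -1.86 in run 2, and without the Btk KO array of run 1 it was -2.05. The Btk KO signal was thus 225 ± 72.5 (SD, n = 2) and not near the floor. The other probe set of the gene was dim, with 7.5 as its highest reading. The position of the brighter set's probes with respect to the deletion was not analysed here, so whether its readings cover the deleted part is not known.

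The genes that lie beside Btk on the X chromosome differed by between -0.24 and 0.26. Among the 25 genes on each side, 6 were bright enough to test, and limma called 0 of the 6 in either fit, with 0 at an unadjusted p under 0.05. Of all genes it called 0% without the block and 0.107% with it. At an unadjusted p under 0.05, 2.25% of all genes were higher and 1.25% lower, so 6 genes are too few to differ from that. Timm8a1, the nearest of them and a chaperone of mitochondrial import, read 48.7 and 48.3 in Xid and 59.7 and 59.1 in Btk KO (difference 0.26). Gprasp1 had the lowest difference of the 6, -0.24, and Hnrnph2, an RNA-binding protein, differed by -0.13.

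Genes of neutrophil granules and of the neutrophil cytosol were among those called with the block. S100a8 and S100a9 encode the subunits of calprotectin, Camp the cathelicidin peptide of specific granules, and Ngp a further protein of those granules. Camp read 56.3 and 45.1 in Xid, 271.1 and 324.2 in Btk KO and 39.4 and 58.8 in CBA. The Btk KO arrays lay above the other 4, and Xid overlapped CBA. Camp rose by 2.42 ± 0.27 in Btk KO with the run block (adjusted p = 0.014), with adjusted p = 0.0503 without it. S100a8 read 65.4 and 50 in Xid, 267.1 and 629.3 in Btk KO and 50.9 and 64.5 in CBA, again with no overlap, and the Btk KO mean was 7.77-fold that of Xid. It rose by 2.72 ± 0.39 with the block (adjusted p = 0.038), with adjusted p = 0.13 without it.

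S100a9 followed the same order, with 49.9 and 26.1 in Xid and 194 and 252.6 in Btk KO, but its difference of 2.42 ± 0.37 did not pass in either fit (adjusted p = 0.085 with the block). Ngp read 6.3 and 11.6 in Xid, 40.8 and 258.3 in Btk KO and 7.4 and 11.2 in CBA. Its Xid and CBA readings lie below the filter's intensity of 19.8, so Ngp was tested only through its Btk KO readings. Its Btk KO arrays differed from each other more than those of the other granule genes, and its difference of 2.92 ± 0.74 did not pass (adjusted p = 0.23 with the block). Slpi, a secreted inhibitor of neutrophil elastase, read 303.4 and 278.3 in Xid and 574.3 and 579 in Btk KO, a difference of 0.97 ± 0.19 that did not pass (adjusted p = 0.15 with the block). A further Slpi probe set differed by 0.94, another by 0.32 with overlapping groups, and a dim one below the filter by 1.56. Without the Btk KO array of run 1, the difference was 3.33 for S100a8, 4.17 for Ngp and 2.55 for Camp. It was 2.61 for S100a9 and 0.98 for Slpi, all resting on 1 Btk KO array.

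The whole neutrophil list was less even. Of its 25 genes on the array, 16 were bright enough to test. None passed without the block and 2 rose with it (Camp and S100a8), where 0.107% of all genes were called with it in either direction. An unadjusted p under 0.05 was seen for 5 of the 16, all higher, as for 2.25% of all genes (1.25% were lower). Both Btk KO arrays lay above both Xid arrays for 6 of 16 (37.5%, against 14.5% of all genes) and below them for 0 (12.5% of all genes). The 5 and the 6 include Ngp, which passed the filter only through its Btk KO readings. The list median was 0.29, at 0.42 in run 1 and 0.59 in run 2, against 0.01 for all genes. Without the Btk KO array of run 1 it was 0.77. Elane, neutrophil elastase, read 27.5 and 52.8 in Xid and 8.6 and 48 in Btk KO, and Csf3r, the receptor of the growth factor G-CSF, read 261.7 and 137.3 against 233.4 and 138, so neither separated the groups. The sum of the 16 intensities was 1091.6 and 1066.9 in Xid, 1082.5 and 1225.1 in CBA, and 1627.2 and 2713.6 in Btk KO. In whole B cell preparations such as these, fewer cells of a type and less RNA per cell cannot be told apart.

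The promoters of the 4 granule and calprotectin genes are shown because Camp and S100a8 were called with the block, and the other 2 encode the second calprotectin subunit and a protein of the same granules. They were chosen after their values were seen. Each sequence runs from 250 bases before to 50 bases after the start in the RefSeq table of GRCm38.p6, and all 4 genes were found there. Camp lies at chr9:109849407-109849706 on the minus strand and Ngp at chr9:110419558-110419857 on the plus strand. S100a8 lies at chr3:90668821-90669120 on the plus strand and S100a9 at chr3:90695672-90695971 on the minus strand. Both strands were searched for TTGCNNAA (N is any base), a form of the sequence bound by C/EBP factors of granulocytes, and for GAGGAA, a core bound by the myeloid factor PU.1. Neither motif contains the other. Matches are in capitals.
Camp: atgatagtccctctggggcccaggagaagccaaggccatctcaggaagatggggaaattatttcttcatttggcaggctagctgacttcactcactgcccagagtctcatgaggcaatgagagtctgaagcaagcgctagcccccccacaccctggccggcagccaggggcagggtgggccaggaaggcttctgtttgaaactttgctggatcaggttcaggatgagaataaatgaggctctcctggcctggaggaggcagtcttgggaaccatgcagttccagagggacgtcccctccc
Ngp: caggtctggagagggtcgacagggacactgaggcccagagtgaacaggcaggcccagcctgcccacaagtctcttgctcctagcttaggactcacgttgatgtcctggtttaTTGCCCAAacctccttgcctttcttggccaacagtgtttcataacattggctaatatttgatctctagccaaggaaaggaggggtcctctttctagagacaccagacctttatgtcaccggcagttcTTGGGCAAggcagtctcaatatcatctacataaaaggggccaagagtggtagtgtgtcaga
S100a8: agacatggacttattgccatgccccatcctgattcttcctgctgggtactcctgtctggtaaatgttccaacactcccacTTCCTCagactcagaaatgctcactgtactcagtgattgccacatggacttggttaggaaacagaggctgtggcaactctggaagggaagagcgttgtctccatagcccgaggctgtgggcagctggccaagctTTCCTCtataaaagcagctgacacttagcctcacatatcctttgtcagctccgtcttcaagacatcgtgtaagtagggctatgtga
S100a9: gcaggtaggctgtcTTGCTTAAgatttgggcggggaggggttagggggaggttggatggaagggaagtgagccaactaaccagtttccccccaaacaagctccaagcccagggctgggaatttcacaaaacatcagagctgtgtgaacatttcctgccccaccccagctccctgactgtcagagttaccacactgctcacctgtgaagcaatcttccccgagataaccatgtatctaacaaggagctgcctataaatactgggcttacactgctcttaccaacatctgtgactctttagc
The TTGCNNAA letters occurred at 2 places before the Ngp start and at 1 place far before the S100a9 start. The Ngp match nearer to the start, printed as TTGGGCAA, is on the minus strand, and the other 2 are on the plus strand. The GAGGAA letters occurred at 2 places before the S100a8 start, on the minus strand, and the Camp window held neither. Of all 32851 promoters in the table, 10.8% held TTGCNNAA and 28.3% held GAGGAA. A match is a description of the letters, not a site of binding.

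Interferon-inducible genes of the Ifi200 family, a cluster that encodes sensors of nucleic acid and their relatives, held called probe sets in both directions. Ifi202b read 1.5 and 10.6 in Xid, 82.5 and 91.7 in Btk KO and 35.2 and 27.6 in CBA. The 3 groups did not overlap, with Xid lowest and Btk KO highest. It rose by 3.06 ± 0.43 with the run block (adjusted p = 0.046), with adjusted p = 0.12 without it and 0.20 in the blocked fit without the Btk KO array of run 1. The Xid level lies near the floor, and the size went from 3.74 with a pseudocount of 2 to 1.90 with one of 24.

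A pair of probe sets with several gene symbols each, all of this family, went the other way. One of them, annotated to Ifi203 and its relatives, read 391.2 and 229.4 in Xid, 8.2 and 1.9 in Btk KO and 9.6 and 11.4 in CBA. It was called in both fits, at -4.85 ± 0.41 (adjusted p = 0.017 without the block and 0.0030 with it). Its Btk KO and CBA readings lie near the floor, below the filter's intensity of 19.8, and the size went from -5.58 with a pseudocount of 2 to -3.49 with one of 24. The other, annotated to Mndal, Ifi211, Ifi205 and Ifi204, read 990.2 and 804.4 in Xid, 50.5 and 140.9 in Btk KO and 45.6 and 76 in CBA. It fell by 3.30 with the block (adjusted p = 0.018; 0.12 without it). For both probe sets the Xid arrays stood above the other 4, and Btk KO overlapped CBA for the second alone. Which gene of the cluster gave these signals cannot be told from the probe sets. Of 3 probe sets annotated to Ifi204 alone, the only one bright enough to test differed by -0.27, at 417.1 and 223.3 in Xid and 298.9 and 211.9 in Btk KO. The other 2 were below the filter, at 3.5 to 25.6 in Xid and 9.8 to 33.1 in Btk KO, and differed by -0.06 and 0.90. Ifi209 differed by 0.08, and Ifi207 read 20.6 and 21.8 in Xid and 51.1 and 56.2 in Btk KO without passing (1.13; adjusted p = 0.40 with the block).

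Interferon-induced genes outside this family gave no call. Of 20 tested, 0 passed in either limma fit and 1, Rsad2, was higher at an unadjusted p under 0.05, as were 2.25% of all genes. Their median was 0.11, and 6 of 20 had both Btk KO arrays above both Xid arrays (30%, against 14.5% of all genes) and 2 below (10%, against 12.5%). The median was 0.17 without the Btk KO array of run 1. Rsad2, the antiviral enzyme viperin, read 36.3 and 33.5 in Xid and 139.5 and 60.1 in Btk KO (difference 1.26). Isg15, a ubiquitin-like modifier, differed by 0.47.

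Ctse encodes cathepsin E, an aspartic protease of endosomes. Of its 3 probe sets, the one that separated the groups read 31.5 and 91.8 in Xid, 701.5 and 703.7 in Btk KO and 781.8 and 896.7 in CBA, so the Xid arrays stood below the other 4 and the Btk KO mean was 11.4-fold that of Xid. It rose by 3.55 ± 0.40 with the block (adjusted p = 0.0097), with adjusted p = 0.052 without it. The other 2 Ctse probe sets did not share the difference. They differed by 0.19 and 0.49, and on them the groups overlapped. The probe sets of 1 gene thus disagreed. Whether the CBA/N sequence differs from that of the probes was not tested.

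On the lower side, Slc1a5, a transporter of glutamine and other neutral amino acids, read 199.9 and 173.9 in Xid, 7 and 31.3 in Btk KO and 25.9 and 29.2 in CBA. It fell by 3.13 ± 0.47 with the block (adjusted p = 0.046; 0.14 without it). The difference was -3.99 in run 1, where the Btk KO reading lies near the floor, and -2.27 in run 2. The size went from -3.44 with a pseudocount of 2 to -2.35 with one of 24. Fli1, an Ets family transcription factor of blood cells, read 101.9 and 160.3 in Xid, 22.9 and 37.6 in Btk KO and 31 and 51.9 in CBA. It fell by 1.92 ± 0.37 with the block (adjusted p = 0.031), with adjusted p = 0.50 without it and 0.11 in the blocked fit without the Btk KO array of run 1. For both genes the Xid arrays stood above the other 4, and Btk KO overlapped CBA.

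The remaining 5 probe sets called with the block have no symbol or several. One without a symbol read 53 and 82.6 in Xid, 1692 and 4380.4 in Btk KO and 101.9 and 84.3 in CBA. It rose by 5.24 ± 0.43 (adjusted p = 0.017 without the block and 0.0030 with it). A further one without a symbol read 76 and 67.1 in Xid, 784.1 and 447.5 in Btk KO and 1521.1 and 1393.8 in CBA, and was also called in both fits (2.95 ± 0.28; adjusted p = 0.023 and 0.0030). The 2 probe sets just before it in the array's numbering, also without a symbol, showed the same order of the 3 groups, with differences of 2.15 and 1.37 (adjusted p = 0.013 and 0.026 with the block). The second of these was not called in the blocked fit without the Btk KO array of run 1 (adjusted p = 0.14). The probe set annotated to Pisd and its pseudogenes read 1052.9 and 815.3 in Xid and 443 and 300.9 in Btk KO, and fell by 1.33 with the block (adjusted p = 0.026).

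The CBA arrays place these differences. For 5 of the 8 probe sets that were higher and 5 of the 6 that were lower in Btk KO with the block, the CBA mean on the log2 scale was nearer to Btk KO than to Xid. In these 10, which hold Ctse, Ifi202b, Slc1a5, Fli1 and the Ifi200 probe sets, Xid lay farther from CBA than Btk KO did on that scale. The 10 also hold the unnamed probe set that read 784.1 and 447.5 in Btk KO and the 2 just before it. Whether those are independent of each other is not known. For Ifi202b the place of CBA depended on the scale. Its unlogged CBA mean, 31.4, was nearer to Xid (6.05) than to Btk KO (87.1). For Btk, Camp, S100a8 and the unnamed probe set that read 1692 and 4380.4, Btk KO lay farther from CBA. Over genes at least 1 log2 unit apart in both runs, 20 were higher (0.357% of 5596 genes) and 14 lower (0.25%). CBA was nearer to Xid for 14 of the 20 and 8 of the 14. These are positions of group means of 2 arrays and were not tested.

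Of the genes ranked next by p with no overlap between the groups, none passed in either fit. Wls, which carries Wnt proteins to the cell surface, read 56 and 33.5 in Xid and 174.9 and 140.3 in Btk KO (difference 1.72; adjusted p = 0.079 with the block). Mrc2, an endocytic collagen receptor, read 32.9 and 37.2 in Xid and 5.4 and 9.4 in Btk KO (-1.63). Mef2c, a transcription factor needed for B cell survival after receptor signals, read 367.4 and 291.5 in Xid and 113 and 186 in Btk KO (-1.14). Its other probe sets differed by -0.99, -1.12 and -0.19. Map2k1, the kinase that activates ERK, read 346.8 and 332.4 in Xid and 195.7 and 195.8 in Btk KO (-0.78), with CBA at 196.9 and 209.5. For Mef2c the CBA arrays, at 317.4 and 331.9, were like those of Xid, and for Map2k1 like those of Btk KO. Ppie, a cyclophilin, differed by -1.67, Aldh9a1, an aldehyde dehydrogenase, by -1.93, Mbd4, a DNA repair glycosylase, by -1.35, and Med1, a Mediator subunit, by -1.02. Fxyd1 differed by -1.59 and Washc2 by -1.08. On the higher side, Epop differed by 1.43, and Cdh3 by 1.19 on 1 probe set and by -0.27 on another. Aldh1a1 differed by 1.89 on 1 probe set and by -0.31 on another, and Pip4k2c by 1.30 and 0.12. The first Aldh1a1 probe set had means of 18.6 in CBA and 17.15 in Xid, below the filter's intensity of 19.8. It was thus tested only through its Btk KO readings. Aldh9a1 had means of 18.35 in CBA and 16.05 in Btk KO, so it was tested only through its Xid readings.

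B cell transcripts were high on all 4 arrays, as the label of the tissue requires, and no gene of the B cell receptor or follicular lists passed. Cd79a, a signalling chain of the B cell receptor, read 5533.1 and 4438.1 in Xid and 3066.3 and 3982.2 in Btk KO, a difference of -0.50 ± 0.26 that did not pass. Ms4a1, which encodes CD20, differed by -0.31 and, on a further probe set, by -0.04, and Cd79b by -0.36, with overlapping groups. Without the Xid array of run 1 Cd79b was at 0.0052 and Ms4a1 at -0.06. The 8 genes of the receptor and its co-receptor had a median of -0.13, which was -0.35 without Xid of run 2, 0.14 without Xid of run 1 and 0.03 without Btk KO of run 2. Pax5, which sets B cell identity, read 839.7 and 801 in Xid and 667.4 and 449.4 in Btk KO (-0.58). Follicular B cell markers had a median of -0.25 over 13 genes, with 9 lower and 1 higher in both runs, where 25.8% and 28% of all genes were. Within the runs it was -0.32 and -0.31. Both Btk KO arrays lay below both Xid arrays for 4 of the 13 (30.8%, against 12.5% of all genes) and above for 0 (14.5%). In either limma fit 0 passed, and 1 was lower at an unadjusted p under 0.05, as were 1.25% of all genes. Ccr6, a chemokine receptor of mature B cells, read 1216.8 and 826.9 in Xid and 523.8 and 674.9 in Btk KO (-0.75), and Fcer2a, the CD23 gene, read 864.2 and 1563.3 against 875.8 and 1211.6.

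Over 19 transcription factors of the B lineage the median was -0.17, or -0.14 and -0.29 by run, and -0.11 without Btk KO of run 2. Ets1 read 521 and 638.3 in Xid and 366.1 and 374.1 in Btk KO (-0.63), and Id3, an inhibitor of E proteins, differed by -0.47, both without overlap between the groups. Of the 19, 4 had both Btk KO arrays below both Xid arrays (21.1%, against 12.5% of all genes) and 0 above (14.5%). Inhibitory receptors and phosphatases had a median of -0.26 over 9 genes, or -0.13 without Btk KO of run 1. Cd72 read 742.6 and 646.7 in Xid and 439.2 and 521.4 in Btk KO (-0.53), Fcgr2b differed by -0.45 and Cd22 by -0.26, while Ptpn22, a phosphatase that restrains antigen receptor kinases, lay higher in Btk KO (203.4 and 211.6 against 341.1 and 282.2). Fcrla, an intracellular Fc receptor-like protein of B cells, read 456.8 and 542.6 in Xid and 177.4 and 275.3 in Btk KO (-1.15). In both limma fits 0 genes of these 3 lists passed. At an unadjusted p under 0.05 there were 2 of the 19 factors, 1 of the 9 inhibitory genes and 1 of the 6 Fc receptor genes, all lower. Of all genes, 1.25% were lower at that threshold. The summed erythroid and neutrophil levels were higher on both Btk KO arrays than on either Xid array, and their part in the B cell values was not tested.

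Besides Btk, no tested gene of the B cell receptor pathway lists passed in either limma fit. The 30 kinases and adaptors had a median of -0.09, at -0.02 and -0.01 in the runs, and ranged from -1.03 to 0.58. Without Btk KO of run 2 the median was -0.04. Of the 30, 0 had an unadjusted p under 0.05, 4 were higher and 6 lower in both runs, where 28% and 25.8% of all genes were. The proximal kinase Blk read 1638.8 and 1251.2 in Xid and 1746.6 and 1043.3 in Btk KO. Syk, which stands between the receptor and Btk, differed by 0.01, and the adaptor Blnk by 0.29. Among relatives of Btk, Tec read 387.3 and 373 in Xid and 342.8 and 266.5 in Btk KO (-0.32), and Txk, mostly of T and NK cells, 39.2 and 69.2 against 81.1 and 81.4 (0.58). Downstream, NFAT and calcineurin genes had a median of -0.15 over 9 and NF-kB genes one of -0.12 over 20. At an unadjusted p under 0.05 there were 0 of the 9 and 1 of the 20. That 1 gene was lower, as were 1.25% of all genes at that threshold. Leaving out 1 array moved the NFAT median to between -0.29 (Btk KO of run 2) and 0.05 (Btk KO of run 1), with -0.26 and -0.09 without Xid of run 1 and of run 2, and the NF-kB median to -0.0021 without Xid of run 1 and -0.0039 without Btk KO of run 2. Nfatc1 read 107.3 and 176.7 in Xid and 80.8 and 183.5 in Btk KO, against 322.7 and 578.5 in CBA, so both mutant lines lay below CBA and overlapped each other. Relb, the subunit of the alternative NF-kB route, read 259.7 and 265.1 in Xid and 127.1 and 173.4 in Btk KO (-0.80) and did not pass (adjusted p = 0.32 with the block). Bcl2, the survival factor, differed by -0.20, with 253.2 and 169.9 in Xid, 195.5 and 164.6 in Btk KO and 434.8 and 399 in CBA.

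Markers of early B cells were mixed. For 17 markers of immature and transitional cells the median was 0.19, at 0.0044 in run 1 and 0.20 in run 2, with 5 above (29.4%, against 14.5% of all genes) and 3 below (17.6%, against 12.5%) without overlap. It was 0.09 without Xid of run 2 and 0.04 without Btk KO of run 2. Rag1, the recombinase, read 22 and 10.7 in Xid and 45.4 and 38.9 in Btk KO (1.15), and Vpreb1, of the surrogate light chain, 27.5 and 33.4 against 58.8 and 57.1 (0.82). The surface markers Cd93 and Cd24a differed by 0.03 and 0.01. Over the 10 marginal zone markers the median was 0.10, or 0.06 without Xid of run 2 and -0.07 without Btk KO of run 1. Cd1d1, which presents lipids and is high on marginal zone cells, read 337.1 and 337.8 in Xid and 409.6 and 420.6 in Btk KO, a difference of 0.29. Of 7 immunoglobulin constant region and J chain genes, Igha read 1575.7 and 802.3 in Xid and 3138.5 and 1927.9 in Btk KO (1.12) and Ighm overlapped (-0.14). The 7 ranged from -1.55 to 1.12, with 3 lower and 1 higher in both runs, where 25.8% and 28% of all genes were. Their median was 0.02. It was 0.23 without Xid of run 1, -0.25 without Xid of run 2, -0.14 without Btk KO of run 1 and 0.13 without Btk KO of run 2. In both limma fits 0 members of these 3 lists passed, and 3 of the 17, 0 of the 10 and 0 of the 7 had an unadjusted p under 0.05. The 3 were higher, as were 2.25% of all genes at that threshold.

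In 4 further lists of other spleen cells (erythroid, NK, T cell and red pulp) the median was above that of all genes in both runs, and 0 of their members passed. The dendritic and stromal lists did not share this. Dendritic cell markers had a median of -0.03 over 12 genes (-0.15 to 0.29 with 1 array left out). Stromal and endothelial markers had one of -0.06 over 12 (-0.10 to -0.05). Mast cell and basophil markers, only 3 genes, did lie above all genes in both runs, at 0.23 and 0.22. Their median was 0.13 (-0.0039 to 0.27 with 1 array left out). The 1 platelet and megakaryocyte gene tested did too, at 0.09 and 0.04. For the 22 erythroid genes the median difference was 0.95, and both Btk KO arrays lay above both Xid arrays for 15 of the 22 (68.2%, against 14.5% of all genes) and below for 0 (12.5%). The median was 1.63 in run 1 and 0.39 in run 2, and 0.53 without the Btk KO array of run 1, the one with the Gapdh ratio of 10.4. Bpgm, which makes the haemoglobin ligand of red cells, read 118.2 and 134.5 in Xid and 486.3 and 240.6 in Btk KO (1.40). Hba-a1, an alpha globin, read 6333.9 and 4641.4 against 13054.9 and 6371.9 (0.75). The summed list read 10469 and 9294.3 in Xid, 6977.7 and 9108 in CBA and 25378.2 and 12818.3 in Btk KO. With limma 0 of the 22 passed in either fit, and 11 had an unadjusted p under 0.05, all higher, as had 2.25% of all genes.

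For the 18 NK and cytotoxic markers the median was 0.77, with 14 higher and 0 lower in both runs, where 28% and 25.8% of all genes were. The median was 0.53 in run 1 and 0.91 in run 2. It rested on each array: it was 0.36 without Xid of run 1, 1.16 without Xid of run 2, 1.24 without Btk KO of run 1 and 0.26 without Btk KO of run 2. Klra3, an NK receptor, read 54.9 and 95.1 in Xid and 121.4 and 184.1 in Btk KO (0.99). Eomes, a transcription factor of NK cells, read 31.5 and 44 against 60.3 and 107.8, and Ncr1, the receptor NKp46, 49.3 and 46.3 against 62.4 and 163.1. These 3 had no overlap, as had 8 of the 18 in all with Btk KO above (44.4%, against 14.5% of all genes) and 0 below (12.5%). The summed list ran from 1079.2 to 1940.5 in Xid and from 1675.2 to 3879.8 in Btk KO, and overlapped. Over 12 T cell markers the median was 0.42, or 0.33 and 0.45 by run, 0.27 without Xid of run 1 and 0.17 without Btk KO of run 2. The summed T cell levels overlapped, at 1318.7 and 1647.8 in Xid and 1499.2 and 2121.4 in Btk KO. Lef1 differed by 0.48, and Cd4 by 0.02. Cd3e, of the T cell receptor complex, read 38.5 and 11.5 in Xid and 17 and 62.6 in Btk KO, with overlap and opposite signs in the runs. With limma 0 members of either list passed in either fit, and 3 NK markers and 0 T cell markers had an unadjusted p under 0.05. The 3 were higher, as were 2.25% of all genes at that threshold.

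For 34 markers of red pulp macrophages and iron handling the median was 0.54, at 0.63 and 0.43 in the runs, with 25 higher and 1 lower in both, where 28% and 25.8% of all genes were. It was 0.18 without Xid of run 1 and 0.24 without Btk KO of run 2. Mrc1, the mannose receptor, read 99.3 and 145.6 in Xid and 287.2 and 246.5 in Btk KO, with CBA at 37.4 and 38.4, a difference of 1.11 ± 0.25 (adjusted p = 0.28 with the block). Spic, which specifies red pulp macrophages, read 162.8 and 201.4 against 360 and 332.2 (0.91), and Vcam1 770.5 and 1064.4 against 1765.9 and 1532 (0.86). For these 3 genes CBA was lowest, Xid between and Btk KO highest, with no overlap. Of the 34, 14 had both Btk KO arrays above both Xid arrays (41.2%, against 14.5% of all genes) and 0 below (12.5%). The complement gene C1qa read 841.4 and 1388.9 in Xid and 294.5 and 1975.6 in Btk KO, with opposite signs in the runs. The summed list ran from 12163.9 to 17774.5 in Xid and from 17283 to 23066.2 in Btk KO, and overlapped. With limma 0 passed in either fit, and 7 had an unadjusted p under 0.05, all higher (2.25% of all genes).

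Over 36 genes of the cell cycle and DNA replication the median was 0.26, at 0.48 in run 1 and 0.10 in run 2, with 22 higher and 1 lower in both runs (28% and 25.8% of all genes). Without Btk KO of run 2 it was 0.48. For 17 of the 36 both Btk KO arrays lay above both Xid arrays (47.2%, against 14.5% of all genes), and for 0 below (12.5%). Top2a, the topoisomerase of dividing cells, read 3.8 and 18.5 in Xid, 47.7 and 44 in Btk KO and 36.2 and 26.3 in CBA (1.74). Mki67 read 32.8 and 52.5 in Xid and 187.3 and 71.5 in Btk KO (1.36), and Rrm2, which makes deoxynucleotides, 24.4 and 41.7 against 113.7 and 72.4 (1.35). For Mki67 the Btk KO array of run 2 lay close to Xid. With limma 0 passed in either fit, and 8 had an unadjusted p under 0.05, all higher (2.25% of all genes). The summed erythroid levels given above were higher on the same arrays, and their part and that of RNA integrity in the cell cycle values were not tested.

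**Figure D3:**
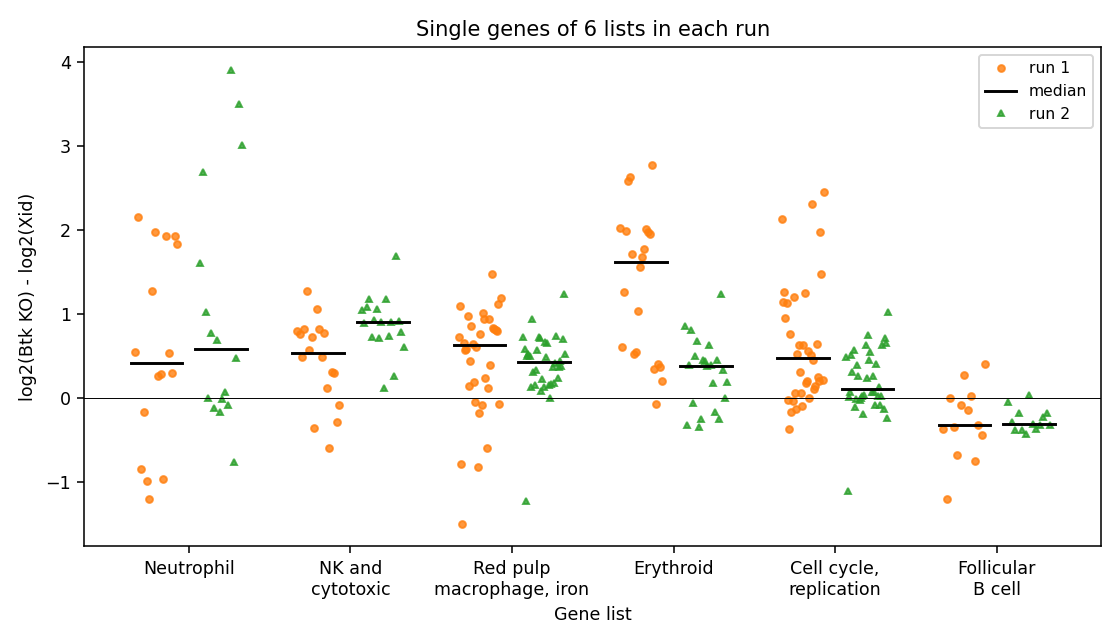
Btk KO minus Xid on the log2 scale for each measured gene of 6 lists, orange circles for run 1 and green triangles for run 2, with a black line at the list's median in that run. Erythroid and cell cycle genes lie higher in run 1 (medians 1.63 and 0.48) than in run 2 (0.39 and 0.10), NK genes lie above 0 in both (0.53 and 0.91), and a few neutrophil genes stand far above the rest of their list.

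The medians of housekeeping lists and of antigen presentation were small and moved with single arrays. Cytosolic ribosomal proteins and genes of the mitochondrial respiratory chain had a median of -0.05 each, over 25 and 51 genes, glycolysis -0.03 over 14 and MHC class II and antigen processing -0.09 over 21. With each array left out in turn, ribosomal proteins ran from -0.29 (without Xid of run 2) to 0.21 (without Xid of run 1), with -0.25 without Btk KO of run 1 and 0.17 without Btk KO of run 2. Glycolysis ran from -0.10 to 0.06 and the respiratory chain from -0.07 to -0.01 (without Xid of run 1). The MHC class II list ran from -0.19 (without Xid of run 2) to 0.22 (without Btk KO of run 1), with -0.0020 without Xid of run 1. H2-Ab1, an MHC class II chain, read 1374.2 and 1414.4 in Xid and 952.9 and 997.2 in Btk KO (-0.51) without passing. Immediate early genes, which respond to handling of cells, had a median of -0.13 over 30. It was -0.36 without Xid of run 2, -0.30 without Btk KO of run 1, 0.14 without Xid of run 1 and 0.15 without Btk KO of run 2. Fos read 1863 and 957.1 in Xid and 1254.4 and 785.6 in Btk KO. For 19 genes of plasma cells and secretion the median was 0.11 (0.06 to 0.26 with 1 array left out), and Xbp1 differed by 0.04. The only gene of the sex chromosome list bright enough to test, Xist, read 908.4 and 254 in Xid and 312.2 and 160.9 in Btk KO, and the groups overlapped. Over the 520 genes of any list, limma called 0 without the block and 2 with it, Camp and S100a8. Of all 5596 genes, each by its brightest probe set, it called 0 without the block and 6 with it (0.107%). Ctse is not among the 6, since its called probe set is not its brightest.

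**Figure D4:**
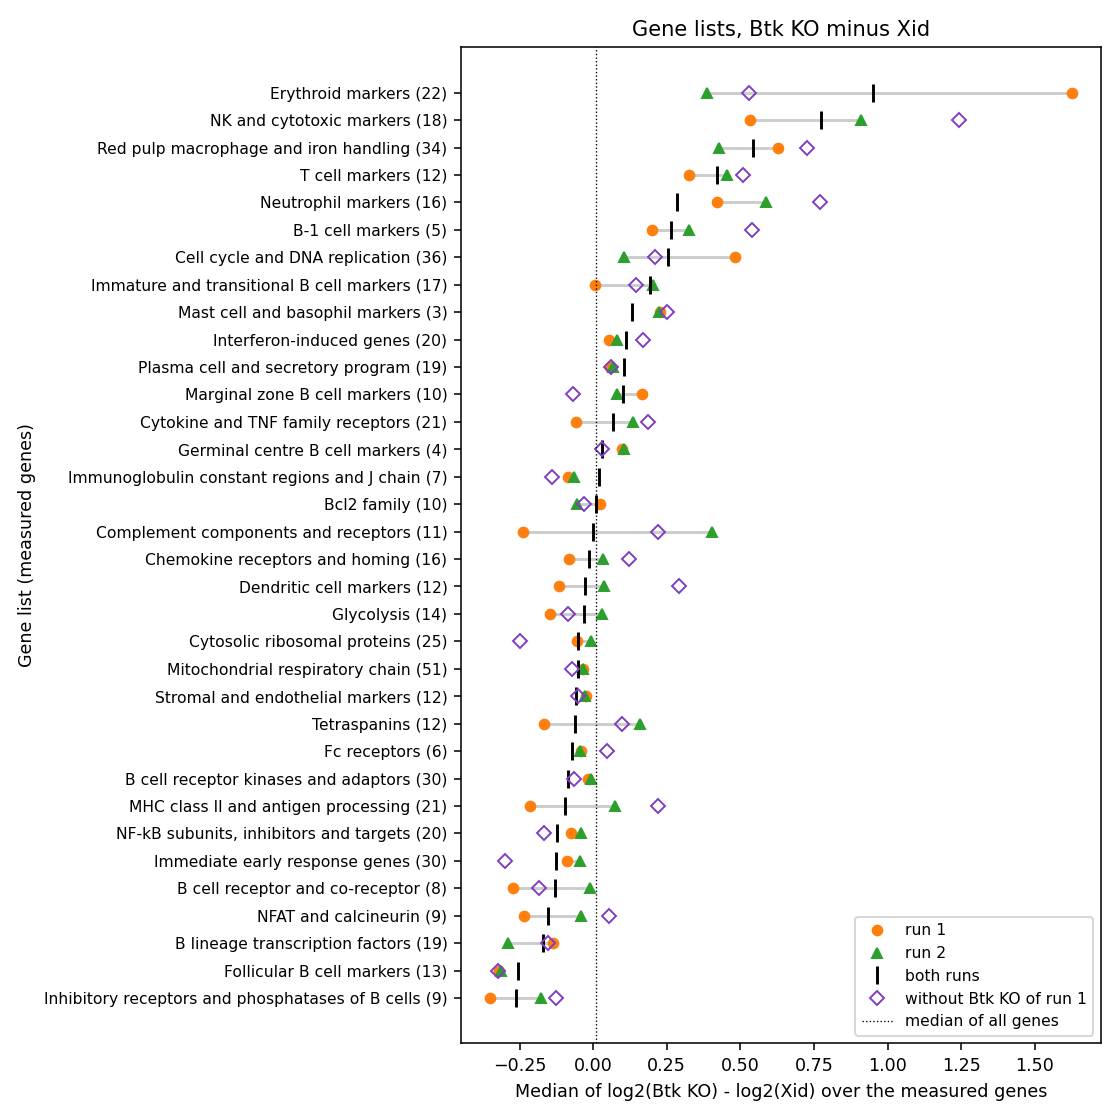
Median of Btk KO minus Xid on the log2 scale over the measured genes of each list with at least 3 of them, for run 1 (orange circle), run 2 (green triangle), both (black bar) and without the Btk KO array of run 1 (open purple diamond), with the number of genes in brackets and the median of all genes dotted. Over both runs the erythroid median (0.95) lies farthest right, with run 1 far above run 2. Without the Btk KO array of run 1 it is 0.53, below the NK (1.24), neutrophil (0.77) and red pulp (0.73) medians.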

How the data were processed

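The series holds 6 MG_U74Av2 arrays hybridised with RNA of whole splenic B cells. The deposited values are 1 linear intensity per probe set and array, scaled by the authors to a 2% trimmed mean near 100 (found from the values). The sources used here do not give the software or the probe summary. Controls (66 of 12488 probe sets) were left out. Of the rest, 10833 have 1 symbol in the platform annotation, 396 several and 1193 none. The 10817 symbols found in the GRCm38.p6 gene table were updated, and genes were named only from probe sets with 1 symbol.

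Values were taken as log2(intensity + 6). Probe sets whose mean lay below the 40th percentile, an intensity of about 19.8, were dropped, which removed 4969 and kept 7453, or 5596 genes by their brightest probe set. Differences of low genes are understated on this scale. The 3 group means were fitted to all 6 arrays with limma 3.58.1 in R 4.3.3 (trended eBayes, two-sided, 3 residual degrees of freedom), with Benjamini-Hochberg adjustment over the 7453 and a threshold of 0.05. The script was tested on simulated data. Precision is limited by the number of arrays.

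The replicate numbers mark the run: the design label names a first and a second set of chips, and the file headers give a chip lot for each. Deviations from the group means correlated within a run at 0.44 for Xid with Btk KO, 0.31 for CBA with Xid and 0.37 for CBA with Btk KO, so the run block is given where it changes a call. The other alternatives were quantile normalization, median centring, pseudocounts of 2 and 24, no filter, a 60th percentile filter, no intensity trend, the 4 arrays alone and each array left out.

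The comparison, the 36 gene lists and the rule for naming genes were chosen with earlier results of these data known. The rule names Btk, every called probe set, up to 12 genes a direction with the smallest p and no overlap, and of each list the first 2 measured and the 4 with the smallest p. Not every list gene that the rule admits is described. Elane, Csf3r, Syk, Blnk, Ifi207, Ifi209 and the genes beside Btk lie outside it and were picked after their values were seen. Lists were described by counts and medians and not tested. Figures were drawn with matplotlib 3.10.9.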

Additional observations from a re-analysis of the deposited data

How the results depend on the processing

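Without a block limma called 2 probe sets higher and 1 lower in Btk KO. With the replicate block, which pairs the arrays of a run, it called 8 and 6. The block with the 4 arrays alone gave 11 and 7, which included all 14, and the block without the Btk KO array of run 1 gave 7 and 5, of which 11 were among the 14. A pseudocount of 24 gave 5 and 3. A 60th percentile filter gave 2 and 0, no intensity trend 1 and 1, and the 4 arrays alone without a block 0 and 0 (212 at an unadjusted p under 0.05, for 2 residual degrees of freedom). Leaving out 1 array gave 0 to 10 higher and 0 to 19 lower. Without Btk KO of run 2, where the array with the Gapdh ratio of 10.4 stands alone, there were 10 and 19, and without Btk KO of run 1 there were 4 and 1, which included the 3. Without either CBA array or Xid of run 1 there were 0, with 207, 209 and 160 at an unadjusted p under 0.05, and without Xid of run 2 there was 1, none of the 3. Quantile normalization, median centring, a pseudocount of 2 and no filter gave 2 and 1. Of 650 values of the 39 named probe sets under these settings, 584 kept their side of the threshold and their direction, 47 passed where they had not, 16 no longer passed and 3 changed sign. These were Cd79b at 0.0052 without Xid of run 1 (range over left-out arrays -0.73 to 0.0052), and Cd3e at -0.16 without Xid of run 2 and -0.28 without Btk KO of run 2 (range -0.28 to 1.30). Of 510 list medians 340 moved by less than the spread between the runs and 170 by more. Where no value above shows it, the cause was not tested.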
